A study of Mus musculus with 15 samples.

Results

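The genes described here are the receptors and transcription factors by which breast tumours are sorted into luminal, Erbb2-positive and triple negative kinds. They are Esr1, Pgr, Erbb2, Prlr, Foxa1, Gata3 and Greb1. The rows of the deposited expression table whose names equal these symbols were taken, and all 7 were found among the 17271 genes of the table. The study measured RNA by sequencing in 15 mammary tumours of mice, and its title names triple negative breast cancer, a kind defined by the absence of oestrogen receptor, progesterone receptor and Erbb2 amplification. Every sample is labelled p53 null, and every sample comes from the Balbc strain. Poly(A) libraries were made from total RNA of whole tumours grown in mice.

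The tumours belong to 4 models. The model 2151R has 4 samples, of which replicates 1 and 2 are titled 2151R-5310 and 2151R-53ca and replicates 3 and 4 are titled NT2 and NT. The meaning of these additions is not given in the labels. T11 has 1 sample, so its values have no replicate and no test. The model 2225L has 2 samples, replicate 1 with T-Vivo and a CP library number and replicate 2 with a ROSEN number. The model 2208L has 8 samples, which are replicate 1 with a ROSEN number, replicates 2 to 5 marked PBS and replicates 6 to 8 marked 3day nt. Titles of the PBS samples open with a DH code and those of the 3day nt samples with a KM code, different in each sample. These codes are not explained, and DH against KM cannot be told apart from PBS against 3day nt. Ages are not given in the labels, which do not state whether the samples of a model are separate animals. The p-values below therefore measure the spread between these samples, which may be technical.

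Oestrogen receptor alpha, the product of Esr1, is a nuclear receptor that binds DNA when it holds oestrogen, and the genes of the progesterone receptor (Pgr) and of the coactivator Greb1 are among its best known targets in the breast. Foxa1 is a pioneer factor that opens chromatin for it, and Gata3 is a zinc finger factor that maintains luminal epithelial identity in the mammary gland. Prolactin acts through a cytokine receptor, Prlr, and the kinase Jak2, while Erbb2 is a receptor tyrosine kinase that signals as a partner of the other members of its family.

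Each value is a log2 ratio between a sample and a level of that gene which is not stated. A difference of 1 is 2 times the level, samples can be compared for a gene, and levels of different genes cannot be compared. Depth is unknown because the table holds no counts. A low value also does not show that a receptor is absent, and in whole tumours fewer cells of a type and less RNA per cell cannot be told apart. Trp53, the gene of p53, lay between -0.29 and 0.29 in 14 of the 15 samples and at 1.63 in replicate 1 of 2225L, and centred values do not show whether it is expressed. The skeletal muscle markers were high in replicate 3 of 2151R and in replicates 6 and 8 of 2208L, with mean centred values of 5.75, 9.08 and 8.50 over 10 genes. For such means of marker lists each gene was first centred again, on its mean of the 15 samples. Samples of 2151R, 2208L PBS and 2208L 3day nt each have library numbers of their own range, which cannot be told apart from the model or subset.

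The stretches in front of the start sites of the members that differed between the models with the most samples are shown so that their letters can be set beside the values. They come from RefSeq (GRCm38.p6), and all 7 members have an entry. Each runs 5′ to 3′ on the strand of its gene and ends before the transcript starts, with annotated exon bases left off. Gata3 (chr2:9878601-9878850, minus strand), Pgr (chr9:8899583-8899832, plus strand) and Greb1 (chr12:16800887-16801136, minus strand) are shown because they were higher in 2151R than in 2208L. Erbb2 (chr11:98412234-98412469, plus strand) is shown because it was lower, and 30 bases in front of Foxa1 (chr12:57546235-57546264, minus strand) because they hold a forkhead motif. Capitals mark GGTCA, 1 arm of the oestrogen response element, or its reverse complement, and in Foxa1 the reverse complement of TGTTTAC, the forkhead motif.
Gata3: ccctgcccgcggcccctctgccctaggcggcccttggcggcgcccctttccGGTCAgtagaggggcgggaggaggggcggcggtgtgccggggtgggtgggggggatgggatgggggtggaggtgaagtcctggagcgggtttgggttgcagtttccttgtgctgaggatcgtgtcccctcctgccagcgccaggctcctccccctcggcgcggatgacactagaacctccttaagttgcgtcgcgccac
Pgr: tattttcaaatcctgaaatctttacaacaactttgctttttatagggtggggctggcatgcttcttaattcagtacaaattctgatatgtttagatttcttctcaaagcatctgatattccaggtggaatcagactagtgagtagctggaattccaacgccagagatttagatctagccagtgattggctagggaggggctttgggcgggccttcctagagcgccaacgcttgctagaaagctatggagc
Greb1: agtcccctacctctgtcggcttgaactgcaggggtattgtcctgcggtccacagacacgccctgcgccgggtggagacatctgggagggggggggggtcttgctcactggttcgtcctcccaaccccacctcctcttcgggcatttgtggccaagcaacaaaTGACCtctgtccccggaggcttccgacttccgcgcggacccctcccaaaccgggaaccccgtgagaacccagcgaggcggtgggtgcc
Erbb2: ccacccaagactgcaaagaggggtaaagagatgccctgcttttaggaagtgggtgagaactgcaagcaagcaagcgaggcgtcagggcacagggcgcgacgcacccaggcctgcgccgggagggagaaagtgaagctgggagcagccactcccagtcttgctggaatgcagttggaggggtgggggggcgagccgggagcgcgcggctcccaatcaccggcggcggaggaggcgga
Foxa1: ttatactgctttGTAAACAaagtgagggcc

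The 250 bases before each start site were searched on both strands for 5 motifs, in 11 windows over the 7 members. The full element (GGTCA, any 3 bases, TGACC), which contains the single arm, was in none of these windows, and it was in 0.0645% of 32536 promoters. The single arm was in 35.3% of all promoters, and among the members it was found in Gata3 at -199, Foxa1 at -210 and Greb1, counted from the start site. In Greb1 it lay at -88 in the window shown and at -194 and -85 in that of a start site further along the gene. The forkhead motif was in 3.17% of promoters and was found in Foxa1 at -141 and in 1 of the windows of Prlr at -215. The GATA motifs AGATAA and TGATAA (9.97% and 7.79% of promoters) were in none of the windows. A match says only that these letters are present.

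The models combined the 7 genes differently. The tumours of 2151R had high Pgr, Gata3, Greb1 and Prlr and low Erbb2. Those of 2225L had high Foxa1 and Erbb2 and low Esr1 and Gata3. Those of 2208L had Erbb2 near the level of 2225L, Prlr near that of 2151R and low Greb1, and the T11 tumour lay below the rest at Pgr, Erbb2, Prlr and Foxa1. The SD over the 15 samples ran from 1.41 for Esr1 to 2.41 for Foxa1, against a median of 0.692 over all genes, and no member shared an exact value between samples.

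**Figure D1:**
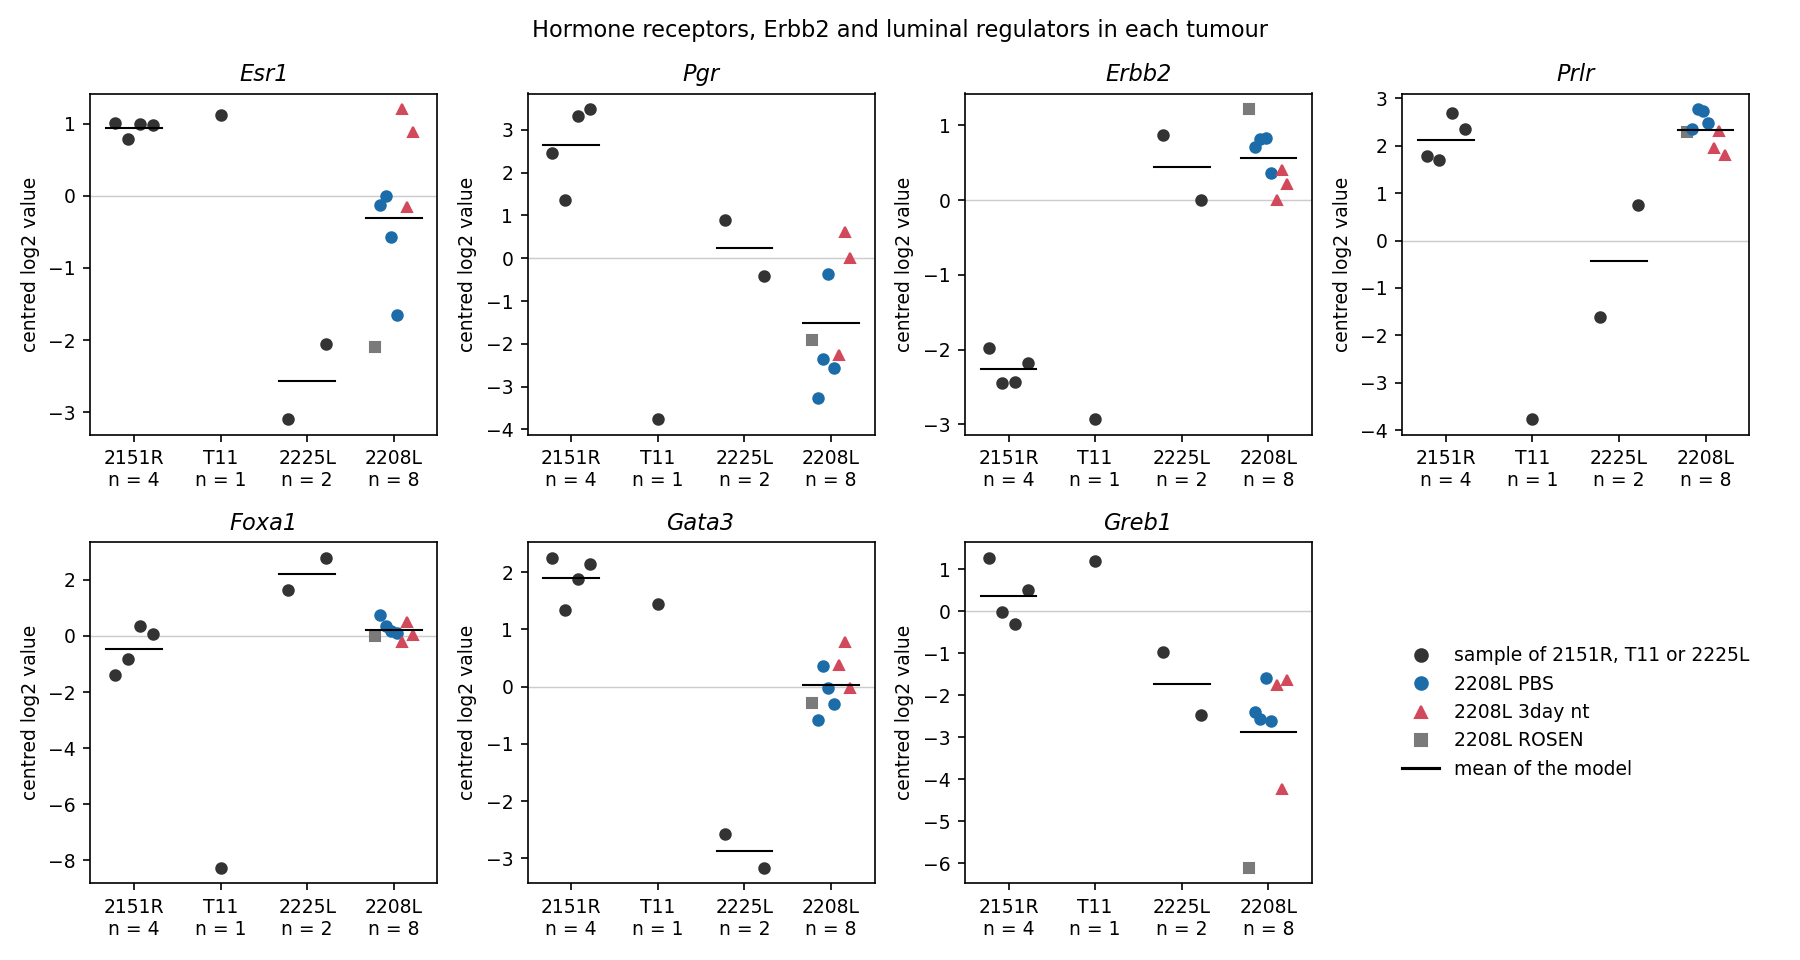
Centred log2 value of each of the 7 genes in each tumour, by model, with the mean of each model as a bar. Points are samples, and the colours and shapes within 2208L mark the PBS, 3day nt and ROSEN samples. Erbb2 lies between -2.45 and -1.98 in 2151R and between 0.00 and 1.22 in 2208L, while Foxa1 of T11 lies at -8.26.

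Esr1, the gene of oestrogen receptor alpha (chr10:4611593-5005614, plus strand), was 1.01, 0.78, 1.0 and 0.98 in replicates 1 to 4 of 2151R and 1.12 in T11. It was -3.10 and -2.05 in replicates 1 and 2 of 2225L. In 2208L it ran from -2.09 to 1.20 with a median of -0.14. Both samples of 2225L were among the lowest, beside the ROSEN sample of 2208L at -2.09, and the 2208L samples spread over the range of the other models. The order of the means was T11, 2151R, 2208L and 2225L. The difference of 2151R from 2208L was 1.26 (SE 0.53) and missed the threshold (limma adjusted p 0.0646). That of 2225L from 2208L was -2.26 (SE 0.68, limma adjusted p 0.0219), and from 2151R it was -3.52 (SE 0.75, limma adjusted p 0.00178). Without the 3 samples high in muscle genes the difference of 2151R from 2208L was called, at 1.69 (limma adjusted p 0.0167), as it was without replicate 6 (1.48) or replicate 8 (1.43) of 2208L alone and against the PBS samples only (1.53). Against the 3day nt samples only it was 0.30 and not called (limma adjusted p 0.576). The call of 2225L against 2208L was lost without replicate 1 of 2225L (-1.74, limma adjusted p 0.178) and with the library prefix as a covariate (-1.92, limma adjusted p 0.0613), as it was with sample weights (limma adjusted p 0.0874) and in a fit of only those models (limma adjusted p 0.0577).

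Pgr, the progesterone receptor gene (chr9:8899833-8968611, plus strand), was 2.45, 1.35, 3.31 and 3.48 in 2151R and -3.76 in T11. It was 0.88 and -0.42 in 2225L, and in 2208L it ran from -3.26 to 0.61 with a median of -2.08. All 4 samples of 2151R lay above every other tumour, and T11 lay below every other tumour. The samples of 2225L fell within the spread of 2208L or just above it. The means were in the order 2151R, 2225L, 2208L and T11. Pgr was higher in 2151R than in 2208L by 4.16 (SE 0.71, limma adjusted p 0.000309). The neighbours in that order, 2151R and 2225L (limma adjusted p 0.0625) and 2225L and 2208L (limma adjusted p 0.166), did not pass the threshold. Without replicate 2 of 2151R, or in a fit of only the models compared, 2225L was called lower than 2151R (-2.85 and -2.42, limma adjusted p 0.0402 and 0.0331).

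The gene of Greb1 (chr12:16670615-16800886, minus strand), a coactivator that oestrogen induces, was 1.28, -0.02, -0.29 and 0.51 in 2151R and 1.20 in T11. In 2225L it was -0.97 and -2.47, and in 2208L it ran from -6.10 to -1.59 with a median of -2.48. Every sample of 2151R lay above every sample of 2225L and 2208L, and the lowest value was that of the ROSEN sample of 2208L. Greb1 was higher in 2151R than in 2208L by 3.23 (SE 0.76, limma adjusted p 0.00313). The differences of 2225L from 2151R (-2.09, SE 1.07) and from 2208L (1.14, SE 0.98) missed the threshold, with limma adjusted p of 0.122 and 0.401. Without replicate 2 of 2225L they were -1.34 and 1.89, and without replicate 1 -2.85 and 0.39, none called. Without replicate 1 of 2208L, the ROSEN sample, the difference from 2208L was 0.68. In a fit of only 2225L and 2151R the former was called (limma adjusted p 0.0302). With the library prefix as a covariate the difference from 2208L was 2.23 and called (limma adjusted p 0.0308), and that from 2151R was -0.64. A gene antisense to Greb1, Gm48140, overlaps it, and whether reads were counted by strand is not given in the sources used here.

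The means of Esr1, its target Pgr and Greb1 put the models in different orders, but whether these genes move together was not tested. Where Esr1 was lowest, in 2225L, Pgr was above its level in 2208L by 1.74 (SE 0.92), which was not called. In T11 Esr1 lay above the samples of 2151R and Greb1 within their range, while Pgr differed from 2151R by -6.41. Among the 21 pairs of members, the root mean square difference of the centred values over the 15 samples was smallest for Esr1 and Gata3 (0.857) and was 2.39 for Esr1 and Pgr and 1.63 for Esr1 and Greb1. These samples fall into models, so the measure describes shared levels of models rather than 15 independent points.

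Erbb2, the receptor tyrosine kinase (chr11:98412470-98437716, plus strand), was -1.98, -2.45, -2.44 and -2.18 in 2151R and -2.93 in T11. It was 0.87 and 0.00 in 2225L, and in 2208L it ran from 0.00 to 1.22 with a median of 0.56. The samples of 2151R and T11 all lay below those of 2225L and 2208L, which overlapped each other. Erbb2 was lower in 2151R than in 2208L (-2.83, SE 0.23, limma adjusted p 4.08e-07) and higher in 2225L than in 2151R by 2.70 (SE 0.33, limma adjusted p 2.11e-05). Between 2225L and 2208L it differed by -0.13 (95% interval -0.78 to 0.52, limma adjusted p 0.773). Leaving out each sample in turn kept the call against 2208L, with differences from -2.92 to -2.74. Mien1 overlaps the end of Erbb2 on the other strand.

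Prlr, the prolactin receptor gene (chr15:10177238-10349180, plus strand), was 1.79, 1.70, 2.70 and 2.35 in 2151R and -3.77 in T11. In 2225L it was -1.62 and 0.74, and in 2208L it ran from 1.81 to 2.78 with a median of 2.34. The samples of 2151R and 2208L shared a narrow range, both samples of 2225L lay below it and T11 lay lowest. Prlr was lower in 2225L than in 2208L (-2.77, SE 0.47, limma adjusted p 0.0006) and than in 2151R (-2.57, SE 0.51, limma adjusted p 0.0011). The difference of 2151R from 2208L was -0.21 (95% interval -0.98 to 0.57, limma adjusted p 0.659). The samples of 2225L were 2.36 apart, and without replicate 1 of that model the difference from 2208L was -1.59 and that from 2151R -1.39, both still called. Without replicate 2 they were -3.96 and -3.75.

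Foxa1, the pioneer factor (chr12:57540628-57546916, minus strand), was -1.41, -0.82, 0.35 and 0.05 in 2151R and -8.26 in T11. In 2225L it was 1.63 and 2.79, and in 2208L it ran from -0.23 to 0.76 with a median of 0.14. Both samples of 2225L lay above all others, and T11 lay far below all others, while 2151R overlapped 2208L. Foxa1 was higher in 2225L than in 2208L by 2.0 (SE 0.41, limma adjusted p 0.00248) and than in 2151R by 2.67 (SE 0.45, limma adjusted p 0.000343). The difference of 2151R from 2208L was -0.66 (SE 0.32, limma adjusted p 0.103). Without replicate 3 of 2151R, 1 of the samples high in muscle genes, that difference was -0.93 and called (limma adjusted p 0.0336). Without replicate 1 of 2151R it was -0.35, and with only the samples titled NT, nt or PBS, which leaves out replicates 1 and 2, it was -0.04 (limma adjusted p 0.948). The low mean of 2151R thus came from those samples, at -1.41 and -0.82. The call of 2225L against 2208L was lost without replicate 2 of 2225L (1.42, limma adjusted p 0.0623) and with sample weights (1.89, limma adjusted p 0.176).

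Gata3, the luminal zinc finger factor (chr2:9857078-9890034, minus strand), was 2.26, 1.34, 1.89 and 2.14 in 2151R and 1.44 in T11. It was -2.57 and -3.16 in 2225L, and in 2208L it ran from -0.58 to 0.77 with a median of -0.03. The 3 models with replicates were fully apart, with 2151R highest, 2208L between and 2225L lowest, and T11 lay within the range of 2151R. Gata3 was higher in 2151R than in 2208L by 1.87 (SE 0.26, limma adjusted p 4.81e-05) and lower in 2225L than in 2208L, at -2.90 (SE 0.33, limma adjusted p 2.95e-05). Between 2225L and 2151R it differed by -4.77 (SE 0.36, limma adjusted p 3.01e-07). Foxa1 and Gata3 act together at oestrogen receptor sites in luminal cells. In 2225L Foxa1 was called higher and Gata3 lower than in both other models with replicates. Gm13256 and 4930412O13Rik overlap Gata3 on the other strand, and the table holds neither.

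Over the 7 genes, 3 (Pgr, Gata3 and Greb1) were higher and 1 (Erbb2) was lower in 2151R against 2208L at an adjusted p under 0.05 (limma, Benjamini-Hochberg). Of all genes tested, 26.1% were called higher and 22.7% lower in that comparison. The same 4 genes had samples of the models that did not overlap, which held for 38.8% of all genes. In 2225L against 2208L, 1 gene (Foxa1) was higher and 3 (Esr1, Prlr and Gata3) were lower, beside 15.6% and 17.3% of all genes, and the samples did not overlap for 3 (Foxa1, Prlr and Gata3), beside 31.7%. In 2225L against 2151R, 2 genes (Erbb2 and Foxa1) were higher and 3 (Esr1, Prlr and Gata3) lower, beside 22.8% and 25.8% of all genes, and for all 7 the samples did not overlap, beside 62.4%. The comparisons against 2208L share its 8 samples and those of 2225L share its 2 samples, so they are not independent. The 7 genes came from a choice made with earlier results of these data known, so the shares over all genes are a background for reading them.

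**Figure D2:**
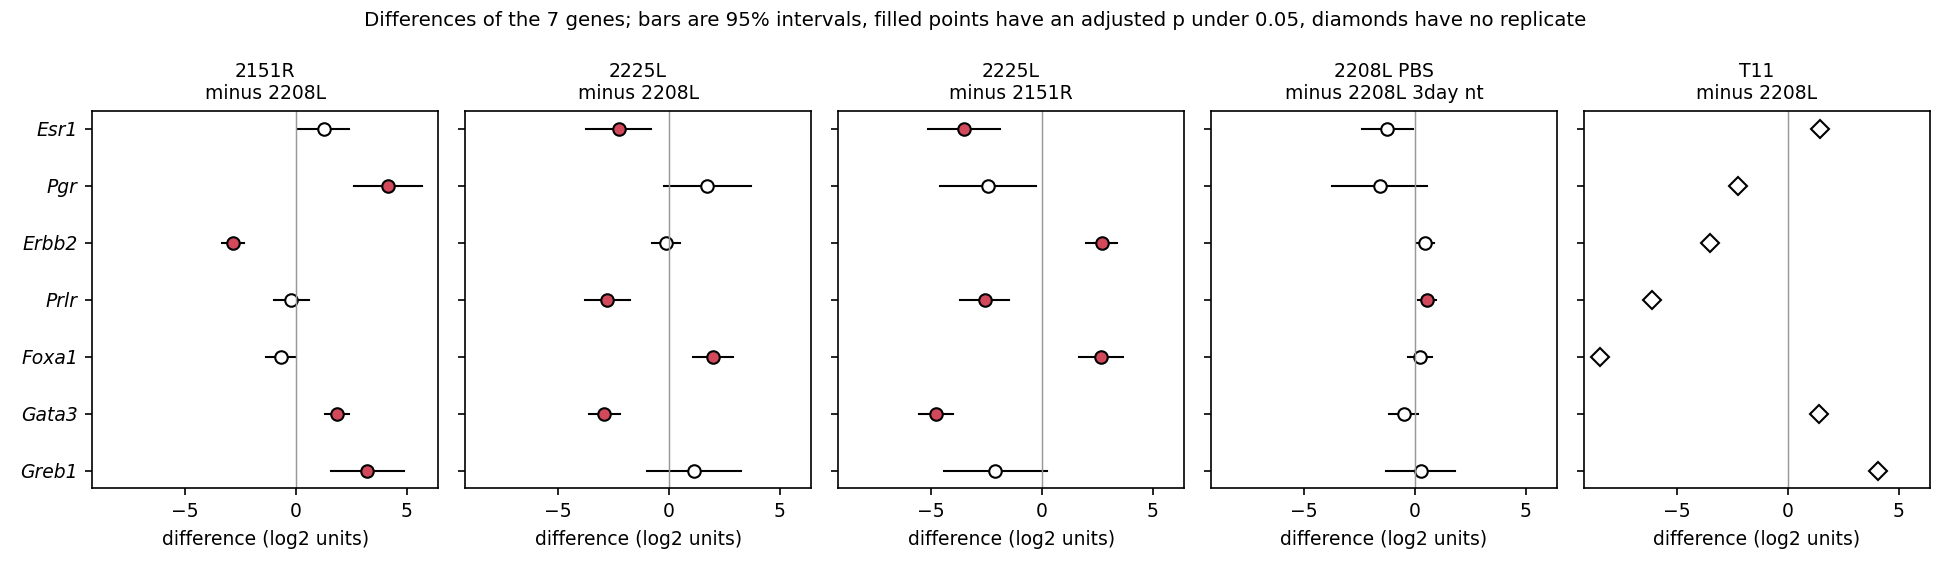
Difference in log2 units of each of the 7 genes in 5 comparisons, with 95% intervals as bars and filled points where the limma adjusted p is under 0.05. Diamonds for T11 have no replicate and no test. Pgr, Gata3 and Greb1 lie to the right and Erbb2 to the left in 2151R against 2208L, and Foxa1 of T11 lies at -8.47.

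The T11 tumour was described by its distance from the means of the other models, counted past 1 log2 unit. Against 2208L, Esr1 (1.43), Gata3 (1.40) and Greb1 (4.06) were higher, and Pgr (-2.25), Erbb2 (-3.50), Prlr (-6.11) and Foxa1 (-8.47) were lower. Past that distance lay 22.9% of all genes on the higher side and 15.6% on the lower side. Against 2151R, Pgr (-6.41), Prlr (-5.90) and Foxa1 (-7.80) were lower, and Esr1, Erbb2, Gata3 and Greb1 lay within 1 unit, beside 15.0% of all genes higher and 10.5% lower. Lying within 1 unit is not an equal level, as Erbb2 of T11 was below all 4 samples of 2151R (-0.67 from their mean) and Esr1 was above them (0.18). Greb1 differed by 0.83, and by 1.13 without replicate 1 of 2151R. Quantile normalization brought Foxa1 of T11 to -5.54 against 2208L, and centring each sample on its median moved the median difference over all genes from 0.18 to 0.02.

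Within 2208L, the PBS samples were set beside the 3day nt samples to see how far the genes vary inside 1 model. Prlr was 2.36, 2.78, 2.73 and 2.48 in the PBS samples and 1.95, 2.32 and 1.81 in the 3day nt samples. All PBS samples lay above all 3day nt samples. Prlr was higher in PBS by 0.56 (SE 0.17, limma adjusted p 0.0459), and of the 7 it alone was called, beside 17.4% of all genes higher and 16.5% lower and 44.8% whose samples did not overlap. This call was lost without any 1 of replicates 2, 3, 4, 5, 6 and 8, with differences from 0.45 to 0.64, and without replicates 6 and 8 together it was 0.27.

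Esr1 was -0.13, 0.00, -0.57 and -1.65 in the PBS samples and 1.20, -0.16 and 0.89 in the 3day nt samples. The subsets overlapped at replicate 7, and the difference of -1.23 (SE 0.49) missed the threshold (limma adjusted p 0.0933). Without replicate 7 it was -1.63 and called (limma adjusted p 0.0446). Erbb2 was 0.70, 0.82, 0.83 and 0.36 in PBS and 0.00, 0.41 and 0.21 in 3day nt samples. These overlapped at 1 value, and the difference of 0.47 (SE 0.16) missed the threshold (limma adjusted p 0.0653). With each sample centred on its median it was 0.54 and called (limma adjusted p 0.0141). Pgr, Foxa1, Gata3 and Greb1 overlapped between the subsets and were not called, with differences from -1.59 (Pgr) to 0.26 (Greb1). The 3day nt samples hold 2 of the 3 tumours high in muscle genes, and their mean adipocyte marker values ran from 1.22 to 2.09 against -4.13 to 1.53 in PBS. The part of these tissues in the differences was not tested.

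Of the other genes that oestrogen is known to induce, 13 were found in the table. In 2151R against 2208L 4 were higher and 3 lower, near the shares of 26.1% and 22.7% over all genes, with a median difference of 0.24 beside 0.10. Rerg, a Ras-like growth inhibitor, was lower (-2.89, SE 0.19, limma adjusted p 3.58e-08), as was Xbp1, a factor of the unfolded protein response (-2.01, SE 0.18). Cxcl12, a chemokine, was higher (1.41, SE 0.30, limma adjusted p 0.00151). In 2225L against 2208L, 4 were higher and 3 lower (median 0.15 beside -0.04, with 15.6% and 17.3% of all genes called), among them Areg, the EGF receptor ligand of ductal growth, at -4.17 (limma adjusted p 1.66e-05) and Cxcl12 at -3.30.

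Genes by which progesterone acts on neighbouring cells gave 3 higher and 1 lower of 8 in 2151R against 2208L, beside 26.1% and 22.7% of all genes, with a median difference of 0.49 beside 0.10. In 2225L 2 were higher and 4 lower than in 2208L, beside 15.6% and 17.3%, with a median of -0.96 beside -0.04. Id4, an inhibitor of basic helix-loop-helix factors, was lower in 2151R (-1.66, SE 0.32, limma adjusted p 0.000843). Areg and Cxcl12 are in this list as well and were higher in 2151R, while Pgr itself was 4.16 higher there.

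Among 17 other steroid and nuclear receptors, 5 were higher and 7 lower in 2151R against 2208L, beside 26.1% and 22.7% of all genes, with a median difference of -0.38 beside 0.10. Vdr, the vitamin D receptor, was lower (-3.65, SE 0.29, limma adjusted p 3.01e-07), as was the orphan receptor Esrrg (-5.43, SE 0.91). In 2225L against 2208L 1 was higher and 6 lower, beside 15.6% and 17.3% of all genes, and with quantile normalization 3 were lower. Among the 6 was Esrrg, at -3.31 (SE 1.17, limma adjusted p 0.0449). Esrrg was -3.79 and 2.57 in replicates 1 and 2 of 2225L, and replicate 2 lay within the range of 2208L (1.79 to 3.64). Of 16 coregulators of the oestrogen receptor, 4 were higher and 2 lower in 2151R against 2208L. The former is near the 26.1% of all genes and the latter under the 22.7%. Ep300 was at 1.30, Kmt2d at 1.28 and the coactivator Ncoa1 at -2.0. Kmt2d was 1.22 and 1.20 in replicates 1 and 4 of 2151R but 0.00 and -0.04 in replicates 2 and 3. In 2225L against 2208L, 0 of the 16 were called higher and 2 lower, beside 15.6% and 17.3% of all genes, with the methyltransferase Kmt2c at -1.85. Of the 16, 9 were higher and 1 lower in PBS than in 3day nt samples of 2208L, beside 17.4% and 16.5% of all genes. The part of muscle in these counts was not tested. No count is given without replicates 6 and 8, which were high in muscle genes, as only replicate 7 of the 3day nt samples is left then.

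Luminal regulators and markers were mostly lower in 2151R. Of 21, 15 were lower and 2 higher in 2151R than in 2208L, beside 22.7% and 26.1% of all genes. The median difference was -3.18 beside 0.10 over all genes. Tfap2c, which acts with the oestrogen receptor in luminal cells, was lower (-7.85, SE 0.22, limma adjusted p 1.6e-11), as were Sox10, a progenitor factor (-7.11, SE 0.21), and the Ets factor Elf3 (-6.73, SE 0.22). In 2225L against 2208L 5 were higher and 5 lower, beside 15.6% and 17.3% of all genes, with a median of 0.40. Against 2151R 14 were higher and 2 lower, beside 22.8% and 25.8%, with a median of 4.0. In T11, 18 of the 21 lay past 1 unit below 2208L and 1 above it, with a median of -4.54. Of all genes, 15.6% lay that far below and 22.9% above. Agr2, a secretory protein of luminal cells, was 5.49 and 5.51 in 2225L and shared the value 0.00 in 9 samples of the other models, so its difference of 5.68 rests on a repeated value. Gata3, which is not in this list, was high in 2151R and T11, where most of its genes were low.

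**Figure D3:**
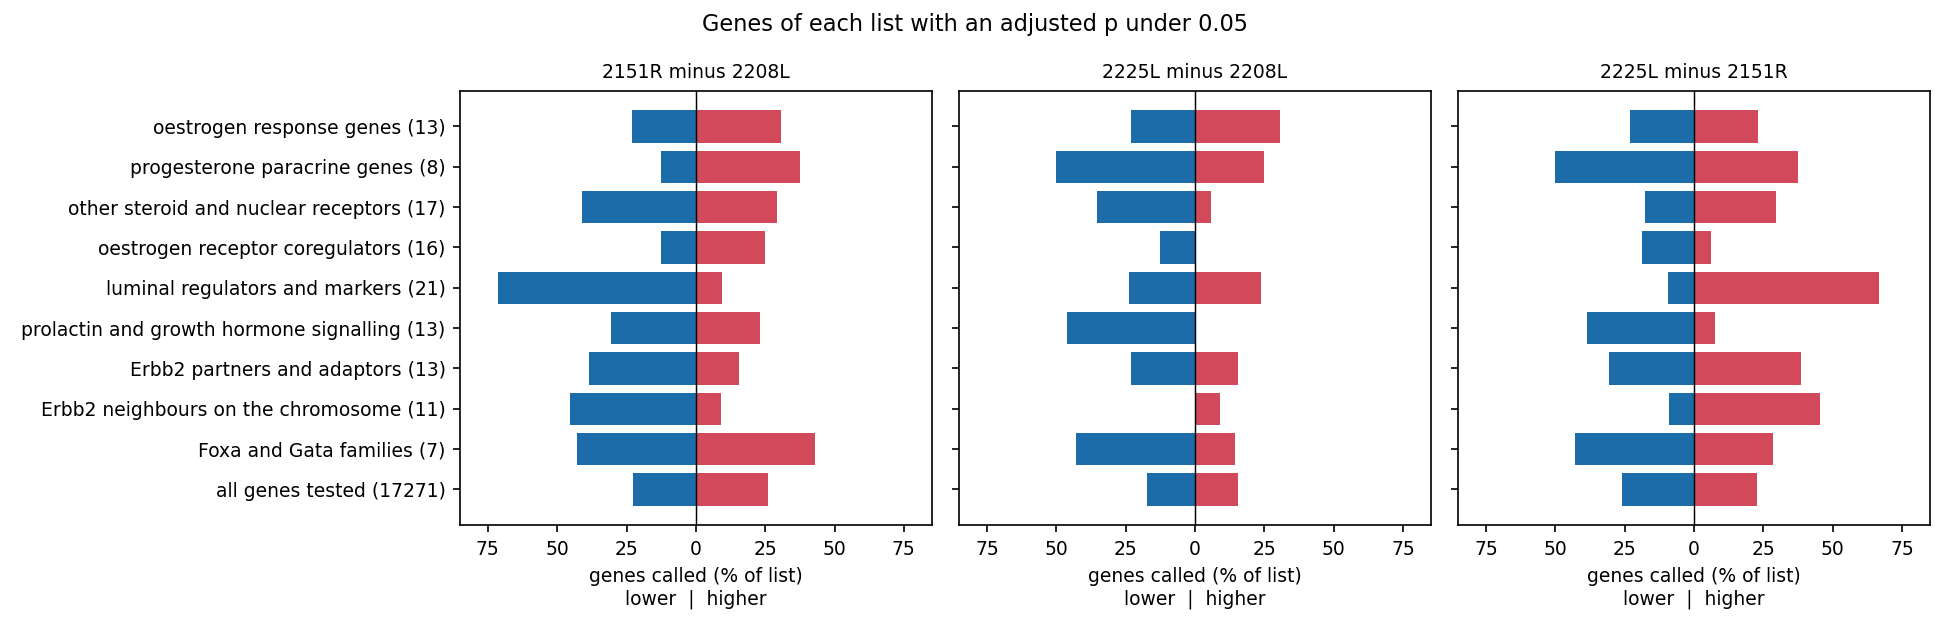
Share of each gene list called lower (left) and higher (right) in 3 comparisons of models by limma with an adjusted p under 0.05, with the number of genes of each list in parentheses and all 17271 genes at the bottom. Luminal regulators and markers have 15 of 21 genes lower in 2151R than in 2208L and 14 of 21 higher in 2225L than in 2151R.

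The epithelial markers moved with these differences, but Krt8, Krt18 and Krt19 are in both this list and the luminal one. Of 9 markers, 8 were lower and 1 higher in 2151R than in 2208L, beside 22.7% and 26.1% of all genes. Cldn7 and Cldn3, both junction proteins, were at -8.34 and -7.33. The mean centred value of the 9 markers ran from -3.88 to -2.59 in 2151R and was -7.43 in T11. It was 2.41 and 2.27 in 2225L and ran from 1.52 to 2.47 in 2208L. Erbb2 was low in the same tumours as these markers, while Gata3 and Greb1 were high there. Of 10 macrophage markers 6 were higher in 2151R, with means from 0.44 to 0.86 against -0.96 to 0.66 in 2208L, and Mrc1 and Msr1 were higher by 2.28 and 1.97. In 2225L 6 of the 10 were lower than in 2208L, beside 17.3% of all genes, and 1 was with sample weights. Of 8 endothelial markers 6 were higher in 2151R, with Tek and Cdh5 each at 1.52. Of 9 fibroblast markers 3 were, near the 26.1% over all genes, with Dcn at 3.56 and Pdgfra at 2.10. The part of these cell types in the values of the 7 genes was not tested.

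Of 8 basal markers 2 were higher and 4 lower in 2151R against 2208L, with Krt5 at 4.73 and Krt17 at -4.50. Of all genes, 26.1% were called higher and 22.7% lower in that comparison. At Krt5, 2 of the PBS samples of 2208L shared an exact value. In 2225L, 4 of the 8 were higher than in 2208L, beside 15.6% of all genes. The mean of the 8 was 2.76 and 2.82 there against -0.94 to 0.62 in 2208L. Of 10 T cell and innate lymphoid markers 2 were higher in 2151R, which were Il1rl1 (2.37) and Cd4 (1.30), near the share over all genes. Of 10 adipocyte markers 3 were, also near that share, with Pck1 at 4.76, where 2 samples of 2208L shared a value, and Cfd at 4.32 not called. None of 10 muscle markers was called there, with Acta1 at -3.52 and Ckm at -3.81. The mean of the T cell and innate lymphoid markers ran from 0.03 to 0.88 in 2151R and from -1.43 to 1.10 in 2208L, and was 0.43 in T11. The part of these cells in the values of Gata3 and the other members was not tested.

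**Figure D4:**
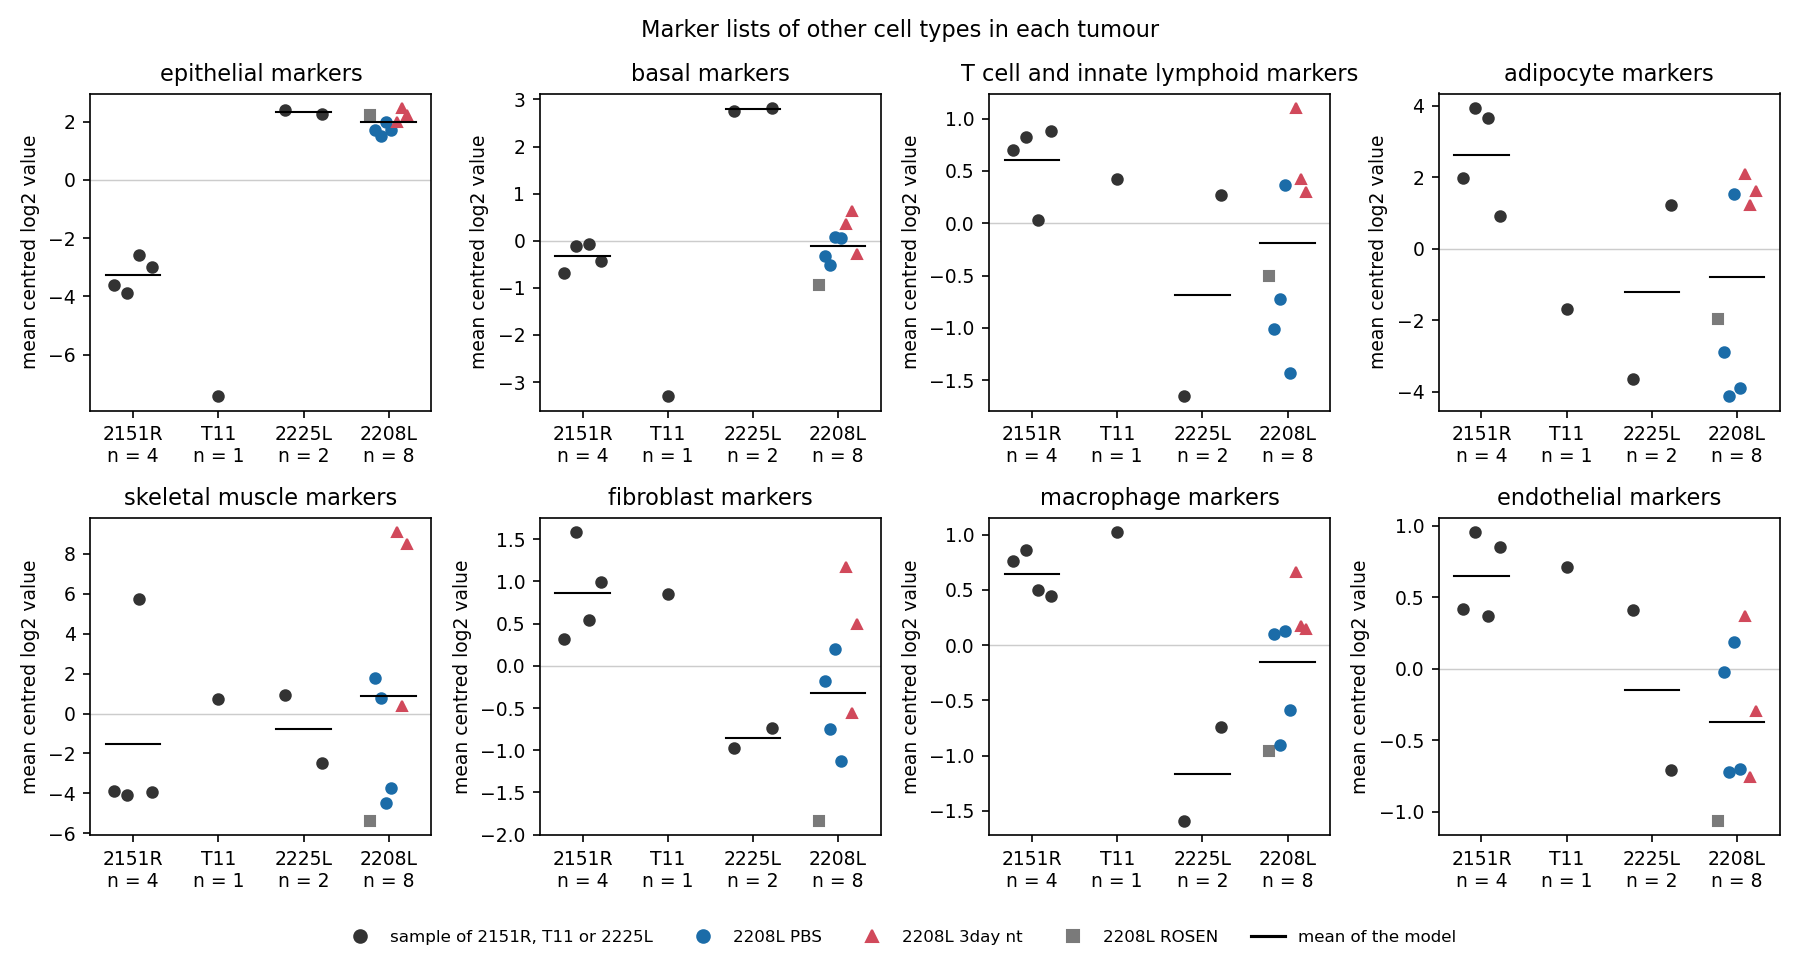
Mean centred log2 value of the markers of 8 cell types in each tumour, by model, with the mean of each model as a bar. Each gene was first centred again on its mean of the 15 samples. The epithelial markers lie between -3.88 and -2.59 in 2151R and between 1.52 and 2.47 in 2208L, and the muscle markers are high in 1 sample of 2151R and 2 of 2208L.

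Erbb2 lies in a stretch of chromosome 11 whose human counterpart is amplified together with it in Erbb2-positive breast cancer. Of 11 neighbours in the table, 1 was higher and 5 lower in 2151R against 2208L, beside 26.1% and 22.7% of all genes. Their median difference was -0.84 beside 0.10 over all genes. Grb7, an adaptor that binds activated receptors and starts 33.9 kb past the start of Erbb2, was lower (-6.16, SE 0.18, limma adjusted p 1.67e-11). Ppp1r1b, a phosphatase inhibitor with its start at -64.1 kb, was lower as well (-5.49, SE 0.57, limma adjusted p 3.85e-06). Pgap3, whose product remodels lipid anchors, differed by -1.51 (SE 0.18, limma adjusted p 1.03e-05). Stard3 (-0.84) and Mien1 (-1.15), between or beside these, were also lower, and Ikzf3 at 133.6 kb was higher (1.41).

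The other 5 neighbours were not called in 2151R against 2208L. Med1, Cdk12, Psmd3 and Med24 lie farther away and had differences from -0.24 to 0.78. Tcap, a sarcomere gene that lies between Stard3 and Pgap3, differed by -3.04 with a wide error (SE 2.52, limma adjusted p 0.34). In 2225L against 2208L, 1 neighbour was called, beside 15.6% of all genes higher and 17.3% lower. It was Ppp1r1b, higher by 4.22 (SE 0.74, limma adjusted p 0.000795), while Grb7 differed by 0.47 and Erbb2 by -0.13. T11 lay at -10.86 for Grb7, -5.98 for Ppp1r1b and -1.26 for Pgap3 against 2208L. The size of the differences did not fall off steadily with distance from Erbb2, as Stard3 lies between Ppp1r1b and Pgap3.

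**Figure D5:**
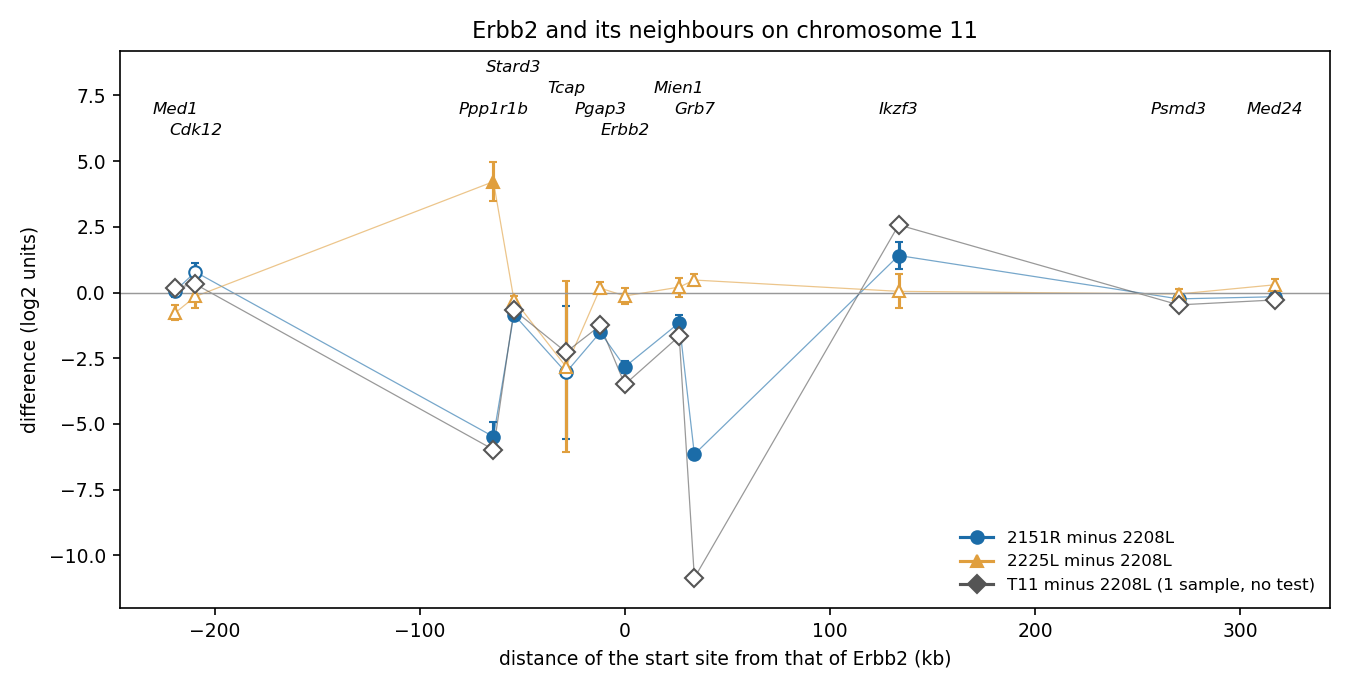
Difference in log2 units from 2208L of Erbb2 and 11 neighbours on chromosome 11, by the distance of their start sites from that of Erbb2 in kb. Bars are standard errors, filled points have a limma adjusted p under 0.05, T11 has no test, and the lines only join the points of a model. Grb7 and Ppp1r1b are lowest in 2151R (-6.16 and -5.49) and in T11 (-10.86 and -5.98).

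Of 13 partners of Erbb2 in signalling, 2 were higher and 5 lower in 2151R against 2208L, beside 26.1% and 22.7% of all genes, and their median difference of 0.09 was close to the 0.10 over all genes. Erbb3, its preferred partner for heregulin signalling, was lower (-5.45, SE 0.34, limma adjusted p 2.52e-08), and Muc4, a mucin that binds Erbb2, was lower (-3.98, SE 0.52, limma adjusted p 2.92e-05). In 2225L 2 were higher and 3 lower than in 2208L, beside 15.6% and 17.3% of all genes. There Muc4 differed by -4.69 (limma adjusted p 0.000177). In PBS samples of 2208L 9 of the 13 were higher than in 3day nt samples and 0 lower, beside 17.4% and 16.5% of all genes. Replicates 6 and 8 of the 3day nt samples were high in muscle genes, and the part of muscle in these counts was not tested. Leaving out replicates 6 and 8 keeps only replicate 7 of the 3day nt samples, so no count is given for it.

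Of 13 genes of prolactin and growth hormone signalling, 3 were higher and 4 lower in 2151R against 2208L, near the shares of 26.1% and 22.7% over all genes. Their median difference was -0.16 beside 0.10, and Prlr itself differed by -0.21. Elf5, the alveolar factor downstream of prolactin, was lower (-5.39, SE 0.23, limma adjusted p 6.89e-10), as were the feedback inhibitors Socs2 (-3.44, SE 0.17, limma adjusted p 3.01e-09) and Cish (-1.81, SE 0.29). In 2225L, where Prlr was lower, 0 of the 13 were higher and 6 lower than in 2208L, beside 15.6% and 17.3% of all genes. The median was -1.25 beside -0.04 over all genes, and Socs2 was at -4.58.

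Of 7 relatives and cofactors of Foxa1 and Gata3, 3 were higher and 3 lower in 2151R against 2208L, beside 26.1% and 22.7% of all genes. Gata2, a factor of blood and endothelial cells among others, was higher by 3.91 (SE 0.34, limma adjusted p 6.32e-07), and Foxa3 was lower (-7.07, SE 0.33, limma adjusted p 1.47e-09). All 4 samples of 2151R and T11 shared the value -8.29 at Gata4, so no difference is given for it. In 2225L against 2208L 1 was higher, Gata6 (2.99, SE 0.45, limma adjusted p 0.000274), and 3 were lower, beside 15.6% and 17.3% of all genes.

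Genes with the most similar pattern were ranked by the root mean square difference of centred values over the 15 samples among 14178 genes. For Esr1 they were Cass4 (0.523), Wnt9a (0.575) and Gapt (0.586). The nearest to Pgr were Ism1 (1.10), Slc5a5 (1.18) and Lmo1 (1.27), and those of Erbb2 were Itgb4 (0.344), Elmo3 (0.350) and Phlda1 (0.356). For Prlr they were Lsm8 (0.768), Fcgbp (0.822) and Slco2a1 (0.855), and for Foxa1 Prom2 (0.719), Itprid1 (0.810) and Atp13a4 (1.06). Gata3 was nearest to Gpr85 (0.455), Tgfbi (0.473) and Cdyl2 (0.503). Greb1 was nearest to Egfr (0.740), Kalrn (0.799) and Ypel4 (0.801). All of these genes were picked for sharing the pattern of a member. Their differences between models follow from that choice, so no test of them is given here.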

How the data were processed

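RNA was measured by sequencing in 15 mouse mammary tumours. A single table of log2 values, deposited by the authors, covers 17271 genes. That it is in log2 and centred per gene on a median is read from its name, and the offset before the logarithm is not given in the sources used here. STAR, Salmon and mm10 are named in the submitters' processing notes, with no role or version. The table holds no counts, so depth is unknown and precision rests on the spread between samples.

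Titles gave the model of each sample, and replicate numbers were given in accession order. The values as deposited entered limma 3.58.1 (R 4.3.3), with lmFit, contrasts and eBayes without a trend. A fit of the 15 samples, with 1 mean per model, compared the models, and a fit of 7 samples compared PBS with 3day nt within 2208L. Benjamini-Hochberg adjustment ran over all 17271 genes, and an adjusted p-value under 0.05 was called. For T11 a difference of at least 1 log2 unit from a mean was counted, with no test. Means of marker lists and similar patterns used values centred again for each gene on its mean of the 15 samples. The fit was tested on simulated data. Alternatives in scaling, prior, weights, covariates and samples were tried.

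The members, gene lists and tests were chosen with earlier results of these data known. Named besides the 7 members are, from each list, the 3 genes that differed most between 2151R and 2208L among those called without overlap, and the 1 with the largest called difference between 2225L and 2208L. From each marker list the 2 largest were named, and for each member the 3 genes of most similar pattern, leaving out predicted genes and genes with a shared exact value. A result that this rule names is not reported here. Other neighbours of Erbb2 were named after their values were seen. Gene positions are from GENCODE vM21 (GRCm38, the assembly mm10), and promoter sequences are from RefSeq (GRCm38.p6).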

Additional observations from a re-analysis of the deposited data

Results flagged for a closer look

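In 180 groups of 4 to 8 samples, 12 held a sample far from the others, where chance gives about 5% of groups, or 9. Among the 7 members this was so for Esr1 in replicate 2 of 2151R, at 0.78 with the others from 0.98 to 1.01, a gap that is small beside the differences between models. Within 2151R, the mean of the skeletal muscle markers was 5.75 in replicate 3 with the others from -4.09 to -3.87, and Acta1 was 6.94 there with the others from -5.17 to -4.19. Agr2 was -0.61 in replicate 4 of 2151R and -1.11 in replicate 4 of 2208L, where the other samples of 2151R and of 2208L PBS shared the value 0.00.

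In 2208L the ROSEN sample, replicate 1, stood apart from the other 7 at Cldn3 (2.02, others 0.91 to 1.24), Kmt2d (-1.52, others -0.78 to -0.32), Pgap3 (0.91, others 0.19 to 0.44) and Ppp1r1b (3.43, others 0.00 to 1.45). Pgap3 and Ppp1r1b are among the listed neighbours of Erbb2, which was also highest of 2208L in that sample, at 1.22. So were genes outside that list, such as Cldn7 (1.86), Elf3 (1.36), Elf5 (1.16) and Foxa3 (3.71), but not Sox10 (0.52). Its mean of the epithelial markers (2.21) was below that of replicate 7 (2.47). Its means of the fibroblast (-1.84), endothelial (-1.06) and macrophage markers (-0.96) were the lowest of 2208L. The part of these cell types in its values was not tested. Among the PBS samples, replicate 5 stood apart at Cldn7 (0.53, others 0.96 to 1.0), and replicate 2 at Ep300 (0.13, others -0.20 to -0.17) and Muc4 (6.23, others 5.07 to 5.26).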

How the results depend on the processing

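No paired analysis was possible because replicate numbers shared between groups are in none of the titles. The calls of Pgr, Erbb2, Gata3 and Greb1 in 2151R against 2208L, of Prlr and Gata3 in 2225L against 2208L, and of Esr1, Erbb2, Prlr, Foxa1 and Gata3 in 2225L against 2151R held under every alternative run. For 2151R against 2208L, 2 members were lower without the 3 samples high in muscle genes, and 1 to 2 when each sample was left out. Prlr was 0.11 against 3day nt samples only and 0.18 with only those titled NT, nt or PBS, and neither was called.

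For 2225L against 2208L, 0 members were higher with sample weights, 2 with the library prefix as a covariate, and 0 to 1 when each sample was left out. Erbb2 ran from -0.57 to 0.30 when each sample was left out, 0.30 being without replicate 2 of 2225L, and was 0.23 against 3day nt samples only. For 2225L against 2151R, 5 members were lower in a fit of only the 2 models. For T11 against 2151R, 0 to 1 members were higher when each sample of 2151R was left out.

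For PBS against 3day nt, 2 members were higher with each sample centred on its median or with quantile normalization, and 3 with sample weights (and 2 lower). With a trend, with a minimum of 1 log2 unit or in a fit of all 15 samples, 0 were higher. Leaving out each sample gave 0 to 1 higher and 0 to 1 lower. Greb1 was -0.54 with sample weights and ran from -0.59 to 0.71 when each sample was left out, and Foxa1 was -0.15 without replicates 6 and 8. The causes were not tested, and fewer samples enter where some are left out.

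Counts over all genes moved by more than 1.5 times with sample weights (958 higher and 1200 lower in 2225L against 2208L, 2529 and 2723 against 2151R, 5938 and 5754 in PBS), against 2693 and 2994, 3934 and 4464, and 3007 and 2857. With only those titled NT, nt or PBS, 2658 were higher in 2151R, against 4508. A minimum of 1 log2 unit left 2585 and 2566 in 2151R against 2208L and 1206 and 1002 in PBS. Without replicate 2, 3, 6 or 8 of 2208L alone the counts in PBS were 2042 and 1844, 2068 and 1780, 1723 and 1227, and 1362 and 1017. Without both replicates 6 and 8 only replicate 7 of the 3day nt samples is left, so no count is given. Of the coregulators, 8 of 16 were lower in 2225L against PBS samples only. In that fit 4305 of all 17271 genes were lower, against 2994 with all samples of 2208L. With sample weights, 1 of 17 nuclear receptors and 0 of 16 coregulators were lower in 2225L than in 2208L, and of 21 luminal genes 2 were higher and 3 lower. Unknown depth, 2 samples of 2225L and 1 of T11 limit the precision.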
